A study of Mus musculus with 18 samples.

Results

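The genes described are the integrin and laminin subunits. They are every gene row whose symbol reads *Itga*, *Itgb*, *Lama*, *Lamb* or *Lamc* followed by the chain's number or letter, and 37 of the 20202 gene symbols in the 3 tables fit that rule. They comprise 18 integrin α subunits, 8 integrin β subunits and 11 laminin chains, of which 5 are α, 3 are β and 3 are γ chains. The table of fresh bone holds 34 of them, having no row for *Itgad*, *Itgae* and *Itgax*, and the tables of bone chips and of ESC hold all 37.

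An integrin is a receptor of 1 α and 1 β subunit that spans the cell membrane and ties the matrix outside to the actin or keratin cytoskeleton inside. The β1 subunit pairs with most α subunits, and the α subunit decides the ligand, which may be collagen, laminin, or proteins with the RGD motif such as fibronectin, vitronectin and the bone sialoproteins. A laminin is a cross-shaped trimer of 1 α, 1 β and 1 γ chain and forms the basement membrane that lies under epithelia and around vessels, nerves and muscle. Osteoblasts sit in a matrix of type I collagen and are known to attach to it through β1 integrins.

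RNA sequencing libraries of 6 mouse cell populations were compared, 3 libraries each, all carrying the Col2.3GFP transgene in which a *Col1a1* promoter fragment drives GFP in maturing osteoblasts. GFP+ (hi) cells and the mixed GFP- cells were sorted fresh from long bone, and both were sorted again from bone chips cultured for osteogenic differentiation. The GFP+ osteoblasts differentiated from embryonic stem cells (ESC-OB GFP+) were set against ESC, which a treatment label also calls differentiated but which the titles and the paper give as undifferentiated. GFP therefore marks cells by promoter activity and not by cell type, the GFP- groups are mixtures, ages are not given in the labels, and no label says whether the 3 libraries of a group came from separate mice or cultures, so p-values measure the spread between these libraries only. In such bulk samples, fewer cells of a type and less RNA per cell cannot be told apart. ESC replicates 2 and 3 were much more alike than the other ESC pairs. Their chi-square per degree of freedom was 1.625, where counting error alone gives about 1, and the other pairs gave 15.97 and 12.59. The ESC group may thus hold fewer than 3 independent libraries, and p-values of the ESC comparison may be too small.

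Library totals ran from 4920977 to 43874837 counts. In bone, depth went with the groups, at 5482065 to 6468750 counts in GFP- and 21425212 to 43874837 in GFP+ (hi) libraries. ESC libraries had 5566062, 21215099 and 4920977 counts, and ESC-OB GFP+ libraries 20680956 to 26601417. Bone chip totals overlapped. Levels are given as CPM, a gene's counts as a fraction of the TMM-scaled library total times 1000000, scaled within each source and not between sources. All 8 osteoblast markers were higher in GFP+ (hi) cells of bone and of bone chips. Of the 6 that could be tested in ESC-OB GFP+ cells, 5 were higher and 1 was lower, while 7 of 8 epithelial, 7 of 7 parietal endoderm and 5 of 5 smooth muscle markers were higher there as well, so that population is called by its label only. The bone GFP- libraries were rich in cartilage transcripts (8 chondrocyte markers summed to 102050 to 204790 CPM, against 7564 to 10109 CPM in GFP+ (hi) cells). Replicate 2 of the bone chip GFP- cells stood apart from the other two, with 842 CPM of leukocyte markers against 67.6 and 104 CPM, and 3603 CPM of macrophage markers against 318 and 412 CPM. Y-linked transcripts were at 73.1 to 134 CPM in the bone GFP- libraries, at 62.4 CPM in bone GFP+ (hi) replicate 2 and under 0.5 CPM in the other two bone GFP+ (hi) libraries, a difference between these libraries that the labels do not describe. They were at most 0.083 CPM in the bone chip libraries and at most 0.184 CPM in those of the ESC comparison.

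In bone and in bone chips the members leaned to lower levels in GFP+ (hi) cells, and in ESC-OB GFP+ cells they leaned to higher levels. Of the 29 members that passed the filter on low counts in bone, 5 were called higher and 15 lower (edgeR's quasi-likelihood test, Benjamini-Hochberg adjusted p under 0.05 over all genes), where 19.5% and 22.1% of all 12559 genes tested were called higher and lower, 41.7% in either direction. In bone chips 34 members were tested, 7 were called higher and 17 lower, beside 20.4% and 23.1% of 12841 genes, together 43.5%. In the ESC comparison 35 were tested, 27 were called higher and 3 lower, beside 43.0% and 34.7% of 15417 genes, together 77.7%.

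The median log2 fold change of the tested members was -1.89 in bone, -1.13 in bone chips and 3.32 in the ESC comparison, where the medians of all genes were -0.00, -0.04 and 0.22. Setting members without counts in 1 group at their bound changed the last of these to 3.07 and left the others as they were. Together the members took 0.0859 to 0.109% of all counts in bone GFP+ (hi) libraries and 0.165 to 0.219% in bone GFP- libraries. Their share was 0.184 to 0.198% in bone chip GFP+ (hi) and 0.306 to 0.320% in bone chip GFP- libraries, and 0.711 to 1.33% in ESC-OB GFP+ against 0.145 to 0.166% in ESC. These are shares of unscaled totals. Of such totals *Col1a1* alone took 36.2 to 37.5% in bone GFP+ (hi) and 0.805 to 1.59% in bone GFP- libraries. In bone chips it took 12.1 to 14.4% and 2.93 to 3.37%. The shares in the sorted sources are thus not on the TMM scale and do not bear on the lean. Members under the filter numbered 5 in bone (*Itgal*, *Itgam*, *Itgb2*, *Itgb6* and *Lama1*), 3 in bone chips (*Itgae*, *Itgax* and *Itgb6*) and 2 in the ESC comparison (*Itgad* and *Itgax*).

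**Figure D1:**
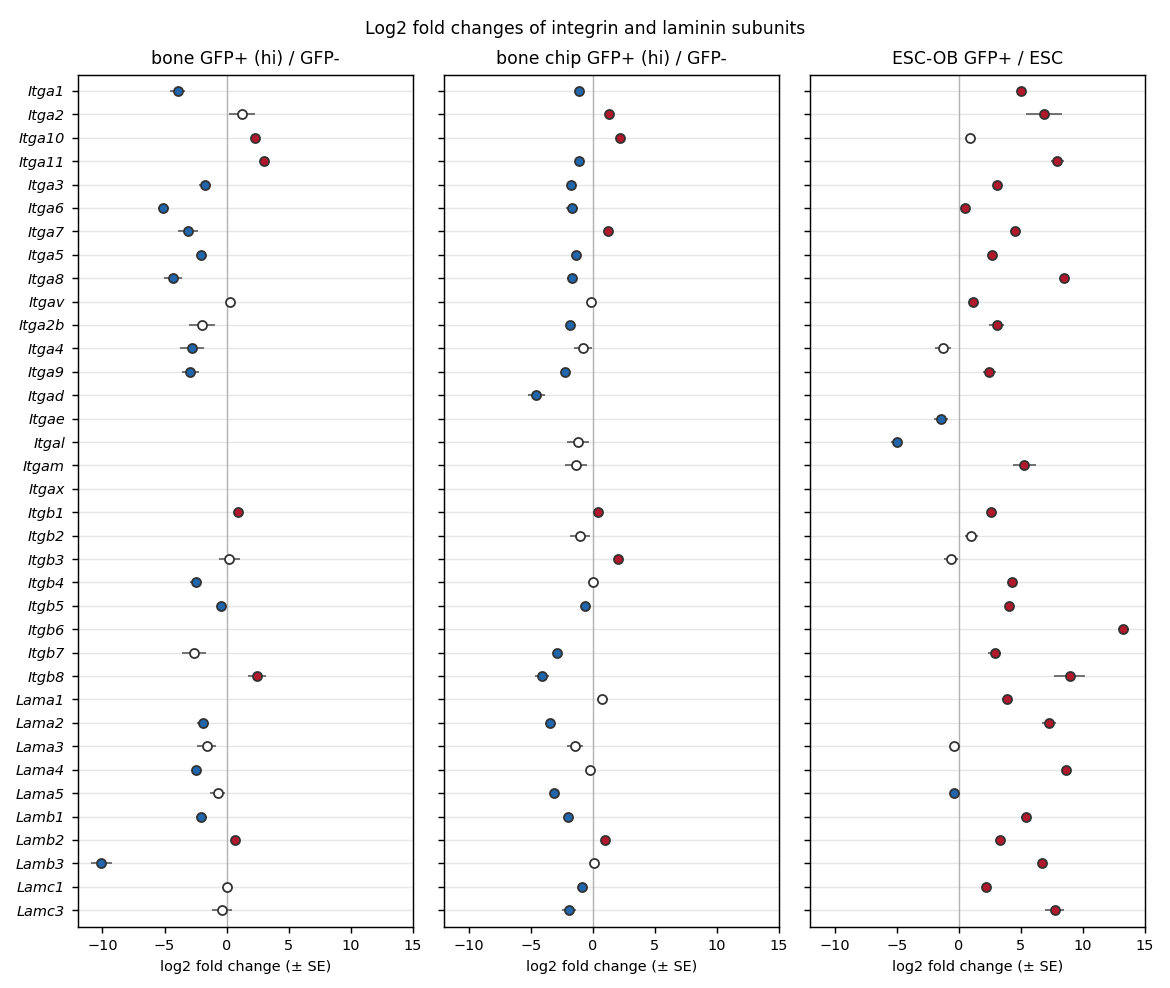
Log2 fold change (x axis, ± SE, 3 libraries a group) of the tested members (y axis) in bone, bone chips and the ESC comparison. Red points were called higher, blue points lower and white points not called. Most points lie left of 0 in the first and second panels and right of 0 in the third, and *Itgb1* and *Lamb2* are red in all 3. For *Lamb3* in bone and for *Itga2*, *Itgb6* and *Itgb8* in the ESC comparison 1 group has no counts, so their positions depend on the fit.

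*Itgb1* and *Lamb2* were the only members called higher in all 3 comparisons, where 4.82% of the 11623 genes tested in all 3 were called so. None was called lower in all 3, beside 3.09% of these genes. *Itgb1* (mm9 chr8:131209554-131257100, + strand) encodes the β1 integrin subunit. Its level was 239, 275 and 257 CPM in the bone GFP- libraries and 534, 511 and 438 CPM in bone GFP+ (hi), so that the log2 fold change was 0.94 with an SE of 0.15 (adjusted p = 0.00086). In bone chips it was 644, 612 and 631 CPM in GFP- and 883, 888 and 752 CPM in GFP+ (hi) cells (0.42 ± 0.10, adjusted p = 0.0151), and in the ESC comparison 176, 182 and 133 CPM against 915, 1038 and 935 CPM (2.55 ± 0.19, adjusted p = 5.62e-07). The groups did not overlap in any source. *Itgb1* had the highest level per kilobase of exon among the members in bone GFP+ (hi), bone chip GFP+ (hi) and bone chip GFP- cells, at mean values of 121, 206 and 154 CPM per kb.

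*Lamb2* (mm9 chr9:108382193-108392861, + strand) encodes the laminin β2 chain, known from the kidney filter and the nerve-muscle junction. Its level was 203, 215 and 251 CPM in bone GFP- and 347, 436 and 295 CPM in bone GFP+ (hi) cells (0.69 ± 0.18 on the log2 scale, adjusted p = 0.0125). In bone chips the values were 186, 157 and 139 CPM in GFP- and 321, 299.7 and 310 CPM in GFP+ (hi) cells (0.95 ± 0.12, adjusted p = 0.000971). ESC held 41.8, 38.8 and 39.6 CPM and ESC-OB GFP+ cells 375, 319 and 509 CPM (3.32 ± 0.21, adjusted p = 1.86e-07). Again no GFP+ library fell within the range of its reference group. Both genes stayed higher without any 1 library except that *Itgb1* in bone chips lost its call without GFP+ (hi) replicate 1 (adjusted p = 0.0713) or replicate 2 (adjusted p = 0.0576), and *Lamb2* in bone lost it without GFP+ (hi) replicate 2 (0.53, adjusted p = 0.0617).

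Part of the smaller rises depends on how libraries with much *Col1a1* are scaled. When libraries were scaled to their total without *Col1a1* and *Rn45s* in place of TMM, the median of all genes moved to -0.41 in bone and in bone chips, and the share of higher among all called genes moved from 46.9 to 24.5% in bone and from 46.8 to 18.5% in bone chips. On that scale *Lamb2* in bone was at 0.29 (adjusted p = 0.253) and *Itgb1* in bone chips at 0.05 (adjusted p = 0.682). Relative to the median of all genes on that scale, *Lamb2* in bone was 0.70 higher and *Itgb1* in bone chips 0.46 higher. *Itgav* and *Lama4*, not called in bone chips with TMM, were called lower there on that scale (-0.52 and -0.60, adjusted p = 0.0156 and 0.013), which is -0.11 and -0.20 relative to that median. With that scaling *Itga10* was the 1 member called higher in all 3 comparisons.

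The promoters of *Itgb1* and *Lamb2* are shown because both moved together in 3 sources. Those of *Itga10* and *Itga11*, the collagen receptor subunits with the largest rises in bone, are shown with them. So is that of *Lamb1*, the β chain that moved against *Lamb2* in bone and in bone chips. Each runs from 250 bases before to 50 bases after the start site and comes from RefSeq on build GRCm38.p6, all on the + strand, at chr8:128685404-128685703 for *Itgb1*, chr9:108479612-108479911 for *Lamb2*, chr3:96645334-96645633 for *Itga10*, chr9:62677605-62677904 for *Itga11* and chr12:31265043-31265342 for *Lamb1*. Capitals mark matches on either strand to the RUNX core TGTGGT, the GC box GGGCGG or the TATA box TATAAA, none of which overlap here.
Itgb1: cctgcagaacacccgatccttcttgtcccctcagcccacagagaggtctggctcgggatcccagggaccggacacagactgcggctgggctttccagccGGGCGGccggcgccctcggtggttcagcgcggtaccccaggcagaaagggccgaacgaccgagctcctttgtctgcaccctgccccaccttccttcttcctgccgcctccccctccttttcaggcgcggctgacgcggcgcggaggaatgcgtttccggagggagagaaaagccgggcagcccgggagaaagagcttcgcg
Lamb2: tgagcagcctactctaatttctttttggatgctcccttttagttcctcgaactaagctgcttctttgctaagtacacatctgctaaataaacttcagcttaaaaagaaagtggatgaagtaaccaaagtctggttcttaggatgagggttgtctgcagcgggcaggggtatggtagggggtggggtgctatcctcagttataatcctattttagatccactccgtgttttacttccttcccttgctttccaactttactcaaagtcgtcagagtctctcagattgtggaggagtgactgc
Itga10: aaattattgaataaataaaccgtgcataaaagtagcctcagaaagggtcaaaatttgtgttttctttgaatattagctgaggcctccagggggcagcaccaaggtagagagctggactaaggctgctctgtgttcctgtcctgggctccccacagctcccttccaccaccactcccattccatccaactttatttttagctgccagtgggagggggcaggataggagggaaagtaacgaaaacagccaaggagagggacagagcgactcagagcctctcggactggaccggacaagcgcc
Itga11: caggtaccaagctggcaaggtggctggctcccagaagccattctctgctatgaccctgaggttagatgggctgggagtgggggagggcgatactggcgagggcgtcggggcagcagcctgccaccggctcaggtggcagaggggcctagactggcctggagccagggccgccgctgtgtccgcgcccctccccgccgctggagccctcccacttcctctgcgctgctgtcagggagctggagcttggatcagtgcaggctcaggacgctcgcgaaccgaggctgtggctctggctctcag
Lamb1: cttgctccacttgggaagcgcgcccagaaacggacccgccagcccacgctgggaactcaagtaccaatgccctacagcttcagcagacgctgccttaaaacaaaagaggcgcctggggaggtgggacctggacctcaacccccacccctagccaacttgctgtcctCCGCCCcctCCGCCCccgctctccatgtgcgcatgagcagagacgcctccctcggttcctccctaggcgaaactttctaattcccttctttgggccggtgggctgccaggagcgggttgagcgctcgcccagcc
The GC box letters occurred once in the *Itgb1* window and at 2 places in the *Lamb1* window. The other windows held no match, and neither the RUNX core nor the TATA box letters occurred in any of the 5. Of all 32851 promoter windows of this length, 16.8% held the RUNX core, 35.7% the GC box and 13.6% the TATA box. Among the 26 windows of the 23 members in the table, the numbers were 3, 12 and 0.

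The collagen-binding α subunits, all of them partners of β1, split by subunit and by source. *Itga10* (mm9 chr3:96449507-96468442, + strand), the collagen receptor subunit best known from cartilage, was at 19.1, 11.9 and 16.5 CPM in bone GFP- and at 80.5, 73.4 and 81.9 CPM in bone GFP+ (hi) cells (2.31 ± 0.20, adjusted p = 1.92e-05). Bone chips gave 44.3, 41.3 and 43.5 CPM in GFP- and 194, 180 and 209 CPM in GFP+ (hi) cells (2.17 ± 0.09, adjusted p = 2.02e-05). Both sources thus showed a wide gap between the groups, and the difference of the effects between them was -0.14 ± 0.21 (adjusted p = 0.664). In ESC-OB GFP+ cells *Itga10* was not called, with 2.95, 3.66 and 3.77 CPM in ESC and 3.73, 7.85 and 7.44 CPM (0.86 ± 0.38, adjusted p = 0.0581). It was called higher there without ESC-OB GFP+ replicate 1 (1.21, adjusted p = 0.00607) and with total-count scaling (1.00, adjusted p = 0.0321), and was then higher in all 3 comparisons. Its exons overlap those of another gene in GENCODE vM1.

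*Itga11* (mm9 chr9:62525633-62631789, + strand), the receptor subunit for fibrillar collagens on mesenchymal cells, changed in opposite directions in the 2 sorted sources. It was at 18.6, 17.0 and 25.0 CPM in bone GFP- and 151, 180 and 154 CPM in bone GFP+ (hi) cells (3.00 ± 0.19, adjusted p = 3.25e-06). In bone chips GFP- cells had the higher level, 233, 156 and 214 CPM, against 92.2, 67.1 and 115 CPM in GFP+ (hi) cells (-1.14 ± 0.23, adjusted p = 0.00688). Groups did not overlap in either source. *Itga11* was the fourth of all members per kilobase in bone GFP+ (hi) and the fifth in bone chip GFP+ (hi) cells. In ESC it had 4 counts in all and in ESC-OB GFP+ cells 31.7, 45.5 and 34.6 CPM (7.92 ± 0.53, adjusted p = 2.58e-07).

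*Itga1*, the collagen receptor subunit also found on vessel and muscle cells, went the other way from *Itga10* in both sorted sources. It fell from 25.2, 39.7 and 32.4 CPM to 2.95, 3.14 and 0.241 CPM in bone (-3.94 ± 0.62, adjusted p = 0.000842) and by 1.13 ± 0.22 in bone chips (adjusted p = 0.0059), and it rose in ESC-OB GFP+ cells by 5.01 ± 0.31. *Itga2* was scarce, at most 4.98 CPM in any library. It was called higher in bone chips (1.32 ± 0.33, adjusted p = 0.0165) and in the ESC comparison, where ESC had 0 counts and ESC-OB GFP+ cells 61, at least 7.58-fold higher against a floor of 3 counts over the group, and it was at 1.27 in bone (adjusted p = 0.36). Bone GFP+ (hi) replicate 3 held 0.144 CPM and the other two 3.21 and 2.94 CPM, and without that library it was called higher in bone (1.83, adjusted p = 0.0484) and so in all 3 comparisons. Its call in bone chips was lost without GFP- replicate 1 (adjusted p = 0.0578) or GFP+ (hi) replicate 2 (adjusted p = 0.0538).

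As shares of all α subunit signal per kilobase, *Itga10* and *Itga11* together made up most of bone GFP+ (hi) cells, with 22.1% ± 3.5 and 45.6% ± 3.9 (SD, n = 3), against 3.50% ± 1.31 and 4.41% ± 1.10 in GFP- cells. In bone chips *Itga10* held 37.4% ± 0.82 in GFP+ (hi) and 6.48% ± 0.37 in GFP- cells, and *Itga11* 17.6% ± 3.75 and 30.6% ± 6.7. ESC-OB GFP+ cells gave 0.706% ± 0.253 and 4.21% ± 0.92.

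**Figure D2:**
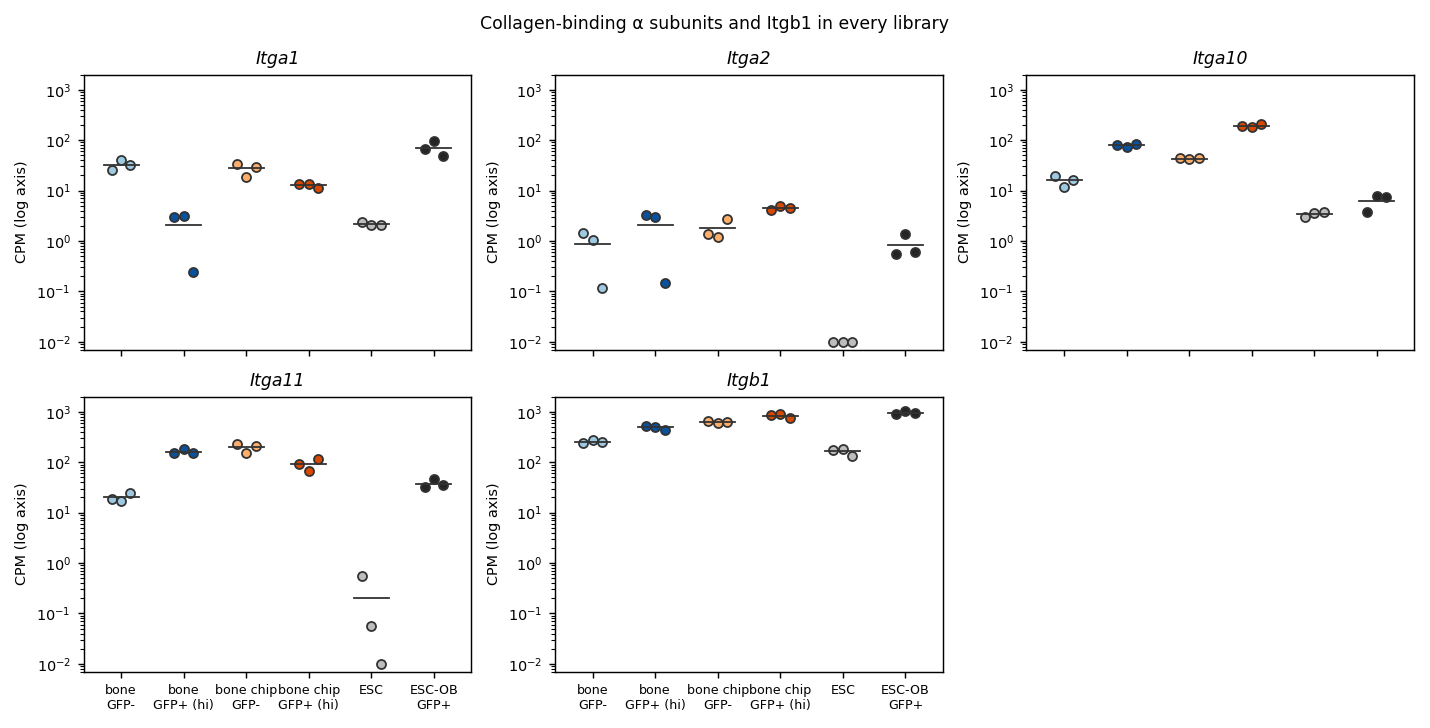
Level of the 4 collagen-binding α subunits and *Itgb1* in every library (y axis, CPM on a log axis, points are libraries and bars the mean of 3, a library without counts is drawn at 0.01). *Itga10* and *Itgb1* are higher in GFP+ (hi) than in GFP- cells of both sorted sources, and *Itga11* is higher in bone and lower in bone chips.

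The RGD-binding α subunits *Itga2b*, *Itga5*, *Itga8* and *Itgav* were lower or not called in sorted GFP+ (hi) cells and higher in ESC-OB GFP+ cells. *Itga5*, the fibronectin receptor subunit, held the largest α share in bone GFP- cells (69.3% ± 5.9) and 21.4% ± 3.6 in bone GFP+ (hi) cells. Its level fell from 211, 341 and 281 CPM to 75.9, 73.9 and 47.0 CPM in bone (-2.08 ± 0.24, adjusted p = 0.000125), and by 1.34 ± 0.10 in bone chips (adjusted p = 0.000107). It rose by 2.69 ± 0.31 in ESC-OB GFP+ cells. *Itga8*, the receptor subunit for nephronectin, fell from 3.08, 6.41 and 7.25 CPM to 0.449, 0.273 and 0.0482 CPM in bone (-4.34 ± 0.72, adjusted p = 0.00114). In bone chips it was under 1 CPM in every library and fell by 1.69 ± 0.35. Against ESC it went from 1.11, 0.721 and 0.419 CPM to 227, 292 and 292 CPM (8.48 ± 0.28, adjusted p = 8.5e-09), the second largest rise among members that had counts in ESC.

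*Itgav*, the αv subunit that pairs with β1, β3, β5, β6 and β8, showed no called difference in the sorted sources. It was at 41.2, 45.6 and 64.8 CPM in bone GFP- and 70.4, 70.3 and 38.5 CPM in bone GFP+ (hi) cells, which overlap (0.24 ± 0.26, adjusted p = 0.495). Bone chips gave 146, 124 and 174 CPM against 143, 114 and 142 CPM (-0.15 ± 0.15, adjusted p = 0.446). ESC-OB GFP+ cells had 151, 112 and 147 CPM and ESC 67.6, 63.4 and 54.7 CPM (1.14 ± 0.17, adjusted p = 0.000124). *Itga2b*, the platelet fibrinogen receptor subunit, was called lower in bone chips (-1.81 ± 0.35) and not in bone (-1.99 ± 1.03, adjusted p = 0.15), where GFP+ (hi) replicate 3 held 4.91 CPM and the other two 0.0962 and 0.41 CPM. Without that library it was called lower in bone too (-5.01, adjusted p = 0.000252). Of the α4 and α9 subunits, which bind VCAM1, tenascin and fibronectin, *Itga9* was lower in bone (-2.92 ± 0.68) and in bone chips (-2.20 ± 0.24). *Itga4* stayed under 3 CPM in bone and had a call at the margin there (-2.80 ± 0.95, adjusted p = 0.0398) that leaving out any 1 of 4 libraries ended (adjusted p = 0.0517 to 0.156).

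Among the β partners of αv, *Itgb3*, the vitronectin receptor β subunit of osteoclasts and platelets, rose in bone chips from 20.2, 15.2 and 12.7 CPM to 65.1, 79.9 and 51.6 CPM (2.04 ± 0.22, adjusted p = 0.000495). It was at most 5.47 CPM in bone, with no call (0.21 ± 0.84). Of the osteoclast markers in bone chips 2 of 4 tested were lower and none higher, with sums of 170 to 180 CPM in GFP- and 146 to 172 CPM in GFP+ (hi) libraries. In bone 1 of 3 tested was higher and none lower, with sums of 62.0 to 88.7 CPM and 126 to 149 CPM. The part of osteoclasts in the levels of *Itgb3* was not tested. *Itgb5*, the other main vitronectin receptor subunit and the second of the β subunits per kilobase in both sorted sources, fell by 0.60 ± 0.12 in bone chips (adjusted p = 0.00659). In bone its fall was at the margin (-0.42 ± 0.15, adjusted p = 0.0482) and leaving out any library but GFP+ (hi) replicate 2 ended the call (adjusted p = 0.088 to 0.142). It rose by 3.99 ± 0.20 in ESC-OB GFP+ cells, from 38.7, 35.2 and 27.2 CPM to 508, 500 and 605 CPM.

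*Itgb8*, whose αv heterodimer binds latent TGF-β, was scarce and changed in opposite directions. Bone GFP- libraries held 0.99, 0.114 and 0.585 CPM and bone GFP+ (hi) libraries 1.73, 3.62 and 4.0 CPM (2.44 ± 0.72, adjusted p = 0.0217). Bone chip GFP- libraries held 5.40, 3.81 and 11.7 CPM and GFP+ (hi) libraries 0.473, 0.498 and 0.239 CPM (-4.11 ± 0.56, adjusted p = 0.0013). Groups did not overlap in either source, but the bone call rests on 15 counts in GFP- cells and was lost without GFP- replicate 2 (1.98, adjusted p = 0.0604) or 3 (adjusted p = 0.0638). *Itgb6*, the epithelial partner of αv, was under 1 CPM in every library of the sorted sources. It had 0 counts in ESC and 71.2, 64.7 and 74.6 CPM in ESC-OB GFP+ cells, at least 662-fold higher against a floor of 3 counts, and *Itgb8* was at least 32.3-fold higher there. In the β class as a whole *Itgb1* took 74.7% ± 2.2 of the signal per kilobase in bone GFP+ (hi) against 53.1% ± 0.9 in bone GFP- cells, and 74.5% ± 2.0 against 61.8% ± 2.1 in bone chips.

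The 3 laminin-binding α subunits, and β4, the hemidesmosome partner of α6, were lower in bone GFP+ (hi) cells. *Itga6*, which pairs with β1 or β4, fell from 47.3, 56.1 and 29.5 CPM to 1.47, 1.98 and 0.482 CPM (-5.10 ± 0.44, adjusted p = 1.96e-05), and *Itgb4* by 2.43 ± 0.47 (adjusted p = 0.00284). *Itga3*, the other subunit of epithelial laminin receptors, fell by 1.75 ± 0.50 in bone (adjusted p = 0.0195) and by 1.73 ± 0.15 in bone chips (adjusted p = 0.00017). The bone call of *Itga3* was lost without GFP- replicate 1 or 3 or without GFP+ (hi) replicate 1 (adjusted p = 0.0512 to 0.0688). In bone chips *Itga6* fell by 1.65 ± 0.49 (adjusted p = 0.0314), and it was lost without GFP+ (hi) replicate 1 (adjusted p = 0.0936) or 3 (adjusted p = 0.093). GFP- replicate 2 held 76.6 CPM of it, the other two 27.2 and 27.7 CPM and the GFP+ (hi) libraries 14.2, 19.3 and 8.45 CPM, and without that library the fall was 0.98 on the log2 scale (adjusted p = 0.0227). *Itgb4* was at 0.02 ± 0.41 there. Schwann and neural markers were also lower in bone, at 39.0 to 60.2 CPM in GFP- and 0.0482 to 0.93 CPM in GFP+ (hi) libraries, with 2 of the 3 tested called lower. In bone chips they summed to 8.32 to 14.6 CPM in GFP- and 1.91 to 2.84 CPM in GFP+ (hi) libraries, with 1 of the 2 tested lower. There *Itgb4* was not called and *Itga7* was higher. The part of these markers in the fall in bone was not tested.

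*Itga7*, the laminin receptor subunit of muscle, was called in opposite directions. In bone GFP- cells it was at 18.6, 5.15 and 3.63 CPM and in GFP+ (hi) cells at 1.67, 1.23 and 0.193 CPM (-3.12 ± 0.81, adjusted p = 0.0121), a call that was lost without GFP- replicate 1 (-2.05, adjusted p = 0.0879). In bone chips it rose from 15, 13.9 and 12.9 CPM to 32.2, 34.9 and 31.7 CPM (1.24 ± 0.09, adjusted p = 0.000109), with a gap between groups and little spread within them. In the ESC comparison *Itga3*, *Itga7* and *Itgb4* rose by 3.07 ± 0.27, 4.50 ± 0.37 and 4.30 ± 0.20, and *Itga6*, at 153, 132 and 120 CPM in ESC and 230, 134 and 219 CPM in ESC-OB GFP+ cells, by 0.52 ± 0.22 (adjusted p = 0.0448). The *Itga6* call was lost without ESC replicate 2 or 3 or ESC-OB GFP+ replicate 1 or 3 (adjusted p = 0.102 to 0.152), while without ESC-OB GFP+ replicate 2 the value was 0.80. *Itga6* held 43.2% ± 3.6 of the α signal per kilobase in ESC but 12.4% ± 3.2 after differentiation (ESC-OB GFP+).

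The leukocyte integrin subunits, as grouped here, are β2 and β7 with αD, αE, αL, αM and αX. In bone *Itgal*, *Itgam* and *Itgb2* were too scarce to test, at most 1.87 CPM, and *Itgb7* was at most 1.94 CPM. In bone chips *Itgam* was at 17.4, 138 and 13.2 CPM in GFP- and 22.4, 26.4 and 16.5 CPM in GFP+ (hi) cells, and *Itgb2* at 9.23, 63.4 and 7.88 CPM against 15.9, 12.9 and 10.3 CPM. The high value of each is GFP- replicate 2, the library with the high leukocyte and macrophage markers. With it *Itgb2* was at -1.05 ± 0.80 (adjusted p = 0.325) and *Itga4* at -0.81 ± 0.74 (adjusted p = 0.415). Without it both were called higher, *Itgb2* by 0.60 (adjusted p = 0.0434) and *Itga4* by 0.67 (adjusted p = 0.041), while *Itgam* and *Itgal* were at 0.51 and 0.54 with no call. *Itgb7*, at 3.83, 5.65 and 4.13 CPM in GFP- and 0.473, 0.747 and 0.558 CPM in GFP+ (hi) cells, fell by 2.91 ± 0.28 in bone chips, and *Itgad* fell by 4.54 ± 0.70. Against ESC, *Itgal* fell from 12.2, 8.77 and 7.75 CPM to 0.38, 0.183 and 0.282 CPM (-5.02 ± 0.44, adjusted p = 1.94e-06). *Itgae*, at 1.29, 1.83 and 1.47 CPM against 0.933, 0.548 and 0.241 CPM, was the other integrin called lower there (adjusted p = 0.0376), and leaving out any library but ESC-OB GFP+ replicate 1 ended that call (adjusted p = 0.0637 to 0.177). *Itgam* rose by 5.26 ± 0.91, led by the first ESC-OB GFP+ library (40.2, 6.85 and 5.67 CPM), and *Itgb7* by 2.89 ± 0.51. All 4 tested macrophage markers, the 1 neutrophil and the 2 megakaryocyte markers tested were higher there. Of 3 leukocyte markers tested 1 was higher and 2 lower, with sums of 256 to 313 CPM in ESC and 15.8 to 39.5 CPM in ESC-OB GFP+ libraries. All 4 T lymphoid and 2 of 3 B lymphoid markers tested were lower. The part of these markers in the rises was not tested.

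Among the laminin β chains, *Lamb1* and *Lamb2* moved apart in the sorted cells. *Lamb1* (mm9 chr12:31950099-32014509, + strand), the β1 chain of most embryonic and vessel basement membranes, was at 14.4, 13.5 and 17.5 CPM in bone GFP- and 2.4, 2.19 and 6.5 CPM in bone GFP+ (hi) cells (-2.03 ± 0.42, adjusted p = 0.00414). In bone chips it was at 322, 201 and 297 CPM in GFP- and 71.1, 60.9 and 69.9 CPM in GFP+ (hi) cells (-2.02 ± 0.19, adjusted p = 0.000242). The fall had nearly the same size in both sources, with a difference of 0.00 ± 0.29 between them (adjusted p = 0.996). Per kilobase, *Lamb2* signal over *Lamb1* signal was 24.8, 28.1 and 25.3 in bone GFP- and 255, 352 and 80.1 in bone GFP+ (hi) libraries. The ratio was 1.02, 1.38 and 0.828 in bone chip GFP- and 7.96, 8.67 and 7.82 in bone chip GFP+ (hi) libraries. It went the other way in the ESC comparison, from 2.19, 1.20 and 1.44 in ESC to 0.261, 0.60 and 0.366 in ESC-OB GFP+ cells.

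*Lamb3*, the β chain of the anchoring laminin of skin, had 230 counts in bone GFP- cells (5.94, 11.6 and 8.77 CPM) and 0 counts in all 3 bone GFP+ (hi) libraries, at least 194-fold lower against a floor of 3 counts over the group. Its α partner *Lama3* was at most 5.85 CPM in bone (-1.60 ± 0.78, adjusted p = 0.127), and was called lower without GFP- replicate 1 (-2.07, adjusted p = 0.0472). In bone chips *Lamb3* was at 3.48, 4.70 and 5.43 CPM in GFP- and 5.21, 6.89 and 2.79 CPM in GFP+ (hi) cells, which overlap (0.12 ± 0.34, adjusted p = 0.804). Epithelial markers in bone summed to 11.1 to 12.5 CPM in GFP- and 2.39 to 3.47 CPM in GFP+ (hi) libraries, with 2 of the 4 tested lower and *Krt5* and *Krt14* under 1 CPM on average, and their part in the fall was not tested.

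*Lamc1*, the γ1 chain shared by most laminins, was at 36.1, 45.5 and 48.7 CPM in bone GFP- and 35.4, 45.6 and 49.5 CPM in bone GFP+ (hi) cells (0.00 ± 0.19, adjusted p = 0.999). The groups overlap there. In bone chips it fell from 197, 145 and 190 CPM to 101, 96.3 and 99.3 CPM (-0.84 ± 0.13, adjusted p = 0.00205). *Lamc3* was at most 2.25 CPM in either source and was called lower in bone chips (-1.91 ± 0.53, adjusted p = 0.0251), which leaving out any 1 of 4 libraries ended (adjusted p = 0.0723 to 0.0825).

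Of the laminin α chains, *Lama4*, the chain of vessel and mesenchymal basement membranes, held the largest share in both sorted sources. It fell in bone from 42.3, 32.9 and 44.7 CPM to 11.2, 6.42 and 4.14 CPM (-2.45 ± 0.33, adjusted p = 0.000358) and was not called in bone chips, at 163, 122 and 118 CPM against 118, 123 and 99.2 CPM (-0.24 ± 0.15, adjusted p = 0.239). *Lama5*, the chain of most mature epithelial and vessel basement membranes, fell in bone chips from 106, 71.2 and 94.5 CPM to 9.56, 12.2 and 9.33 CPM (-3.13 ± 0.19, adjusted p = 5.15e-05). *Lama2*, the chain of the muscle basement membrane, fell there from 16.1, 8.76 and 8.63 CPM to 1.23, 0.913 and 0.877 CPM (-3.46 ± 0.34, adjusted p = 0.000296) and in bone by 1.89 ± 0.47 (adjusted p = 0.0103), a call lost in bone without GFP- replicate 1 (-1.46, adjusted p = 0.0696). In bone chips smooth muscle markers summed to 154 to 279.5 CPM in GFP- and 52.2 to 77.3 CPM in GFP+ (hi) libraries, with 3 of the 4 tested lower and 1 higher, and epithelial markers to 17.6 to 19.7 CPM and 3.79 to 5.56 CPM, with the 1 tested lower. Their part in the laminin falls was not tested.

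*Lama1* and *Lama3* were not called in bone chips (adjusted p = 0.201 and 0.118). With the replicate number as a block, *Lama1* was called higher (0.74, adjusted p = 0.0414) and *Lama3* lower (-1.41, adjusted p = 0.00299). Same-numbered bone chip libraries deviated together, but no label pairs them. *Lama3* was also called lower there without GFP- replicate 3 (-1.78, adjusted p = 0.0403). In bone, *Lama5* was at 1.65, 1.14 and 5.03 CPM in GFP- and 1.83, 1.57 and 1.35 CPM in GFP+ (hi) cells. Bone GFP+ (hi) libraries held 14.6 to 18.1 CPM of 6 pluripotency markers, each at 0.359 to 0.436% of its ESC level, and *Lama5* there was at 0.421% of its ESC level, *Itga6* at 0.971%, *Lama1* at 0.926% and *Lama3* at 1.03%. The part of that signal in these 4 genes was not tested.

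**Figure D3:**
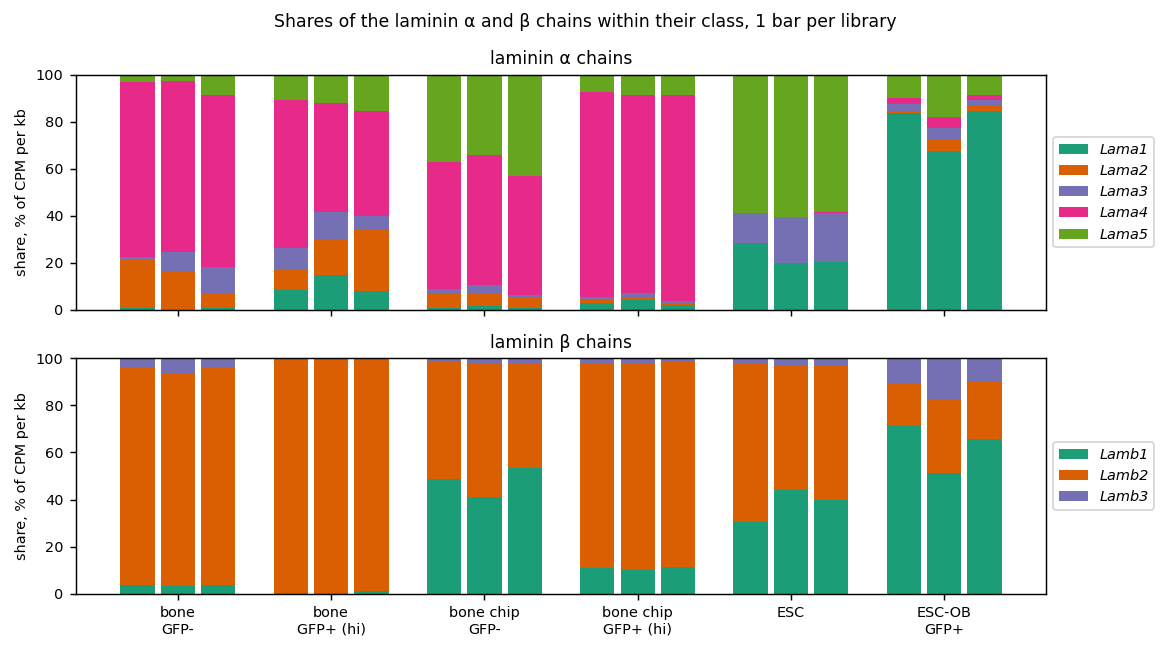
Share of each laminin chain within the α and β chains (y axis, % of CPM per kb of exon), 1 bar per library and 3 libraries a group. *Lamb2* makes up 98.8 to 99.7% of the β signal in bone GFP+ (hi) libraries, 87.2 to 87.8% in those of bone chips, and 44.3 to 56.6% in bone chip GFP- libraries.

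In the ESC comparison 9 of the 11 laminins were called higher and 1 lower, beside 43.0% and 34.7% of all genes. Their median log2 fold change was 4.72, and that of all genes 0.22. *Lama1*, *Lamb1* and *Lamc1*, which form the laminin of the early embryo, reached the highest levels. *Lama1* was at 156, 109 and 99.1 CPM in ESC and 2055, 784 and 2484 CPM in ESC-OB GFP+ cells (3.87 ± 0.40, adjusted p = 7.07e-06). *Lamb1* was at 33.7, 56.9 and 48.4 CPM against 2535, 937 and 2456 CPM (5.41 ± 0.41, adjusted p = 7.13e-07), and *Lamc1* at 461, 455 and 415 CPM against 2286, 951 and 2835 CPM (2.19 ± 0.34, adjusted p = 0.000145). For each of these the second ESC-OB GFP+ library was the lowest, and it was still above all ESC libraries.

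*Lama4* rose from 0.369, 0.111 and 0.209 CPM to 72.6, 69.4 and 82.4 CPM (8.64 ± 0.32, adjusted p = 1.06e-08), the largest rise among members with counts in ESC. The anchoring chain *Lamb3* rose by 6.73 ± 0.22, while its α partner *Lama3* was not called, at 76.3, 121 and 113 CPM in ESC and 79.0, 62.8 and 86.9 CPM in ESC-OB GFP+ cells (-0.44 ± 0.20, adjusted p = 0.0692). Without ESC replicate 1 *Lama3* was called lower (-0.62, adjusted p = 0.0118). *Lama2* and *Lamc3* rose by 7.26 ± 0.57 and 7.71 ± 0.79. *Lama5* was the only laminin called lower, at 388, 398 and 341 CPM in ESC and 299, 251 and 305 CPM in ESC-OB GFP+ cells (-0.40 ± 0.16, adjusted p = 0.0429), and leaving out any 1 library ended that call (adjusted p = 0.0529 to 0.109), with a value of -0.24 without ESC-OB GFP+ replicate 2. Its share of the α signal per kilobase went from 59.3% ± 0.9 to 12.3% ± 5.0, and that of *Lama1* from 22.9% ± 4.9 to 78.6% ± 9.7. Markers of parietal endoderm, the embryonic layer that lays down a thick laminin sheet, summed to 508 to 586 CPM in ESC and 7431 to 9738 CPM in ESC-OB GFP+ libraries, and epithelial markers to 431 to 567 CPM and 3479 to 5159 CPM. The parietal endoderm list holds *Sparc*, and its sum is not particular to that layer. In bone it was 15897 to 26575 CPM in GFP- and 53013 to 59260 CPM in GFP+ (hi) libraries. In bone chips it was 8108.5 to 9107 CPM and 27922 to 32960 CPM. The part of these 2 marker lists in the rises was not tested.

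**Figure D4:**
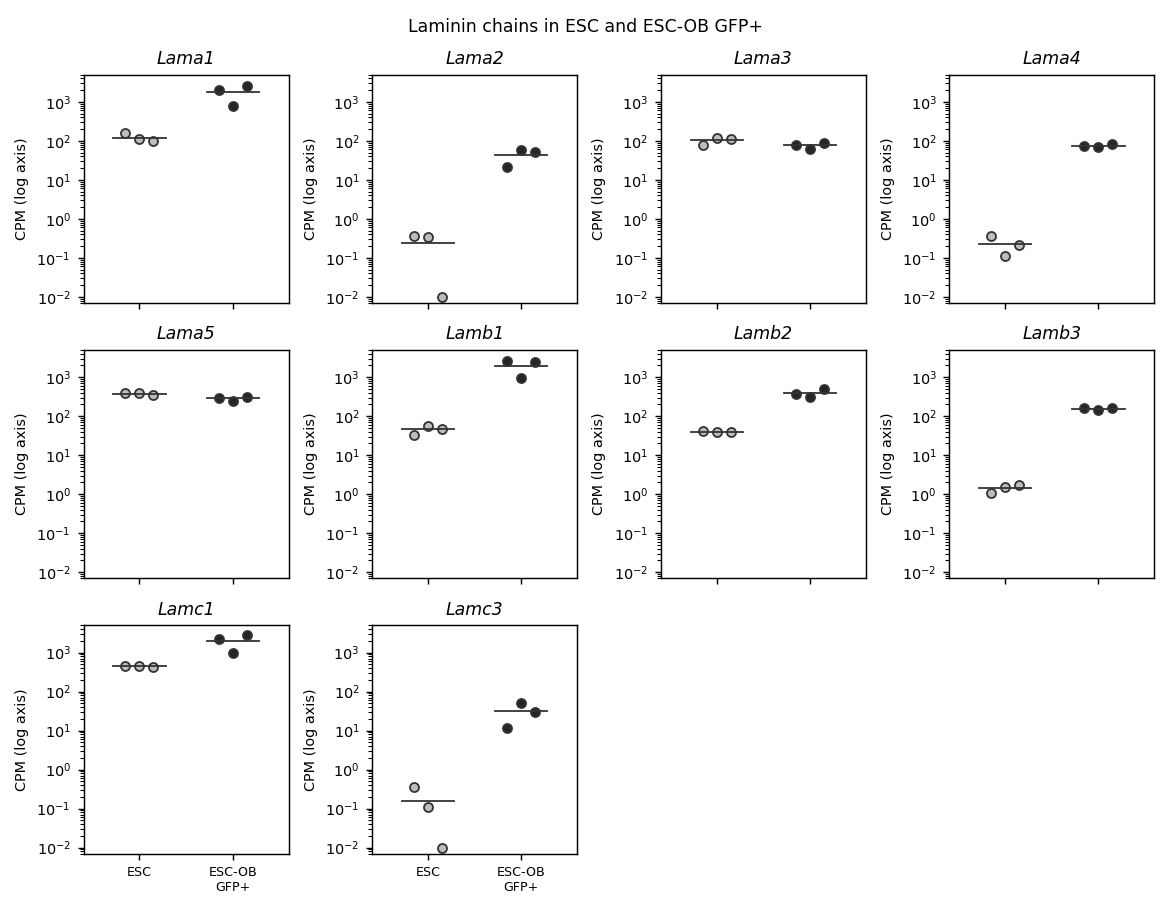
Level of laminin chains in ESC and ESC-OB GFP+ libraries (y axis, CPM on a log axis, points are libraries, bars the mean of 3, a library without counts is drawn at 0.01). All chains drawn except *Lama3* and *Lama5* are higher in the 3 ESC-OB GFP+ libraries than in the 3 ESC libraries.

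Bone and bone chips were compared directly by a test of the difference between their GFP effects, in 1 fit of 12 libraries. Of 33 members tested, 13 differed, beside 30.3% of 13574 genes. For 8 of them the effect was higher in bone chips and for 5 lower, beside 15.6% and 14.7% of these genes. Of the 29 members tested in each of the 2 sources, 3 were called higher in both (*Itga10*, *Itgb1* and *Lamb2*) and 9 lower in both (*Itga1*, *Itga3*, *Itga5*, *Itga6*, *Itga8*, *Itga9*, *Itgb5*, *Lama2* and *Lamb1*), beside 8.50% and 9.30% of 11789 genes. Those called in opposite directions numbered 4, among them *Itga11* (difference, bone chip minus bone, -4.14 ± 0.32), *Itgb8* (-6.54 ± 0.93) and *Itga7* (4.35 ± 0.82), beside 4.97% of these genes. Of those lower in both, *Itga1*, *Itga6* and *Itga8* fell further in bone than in bone chips, by a difference of 2.81 ± 0.70, 3.46 ± 0.70 and 2.66 ± 0.92. *Itgb1*, higher in both, rose less in bone chips by 0.52 ± 0.18 (adjusted p = 0.0436), and leaving out any 1 of 7 libraries ended that call (adjusted p = 0.0546 to 0.0927). *Itga8* lost its call (adjusted p = 0.0453) without any 1 of 9 libraries, with adjusted p-values from 0.0651 to 0.109. With the replicate block neither difference was called (adjusted p = 0.0732 for *Itgb1* and 0.118 for *Itga8*).

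**Figure D5:**
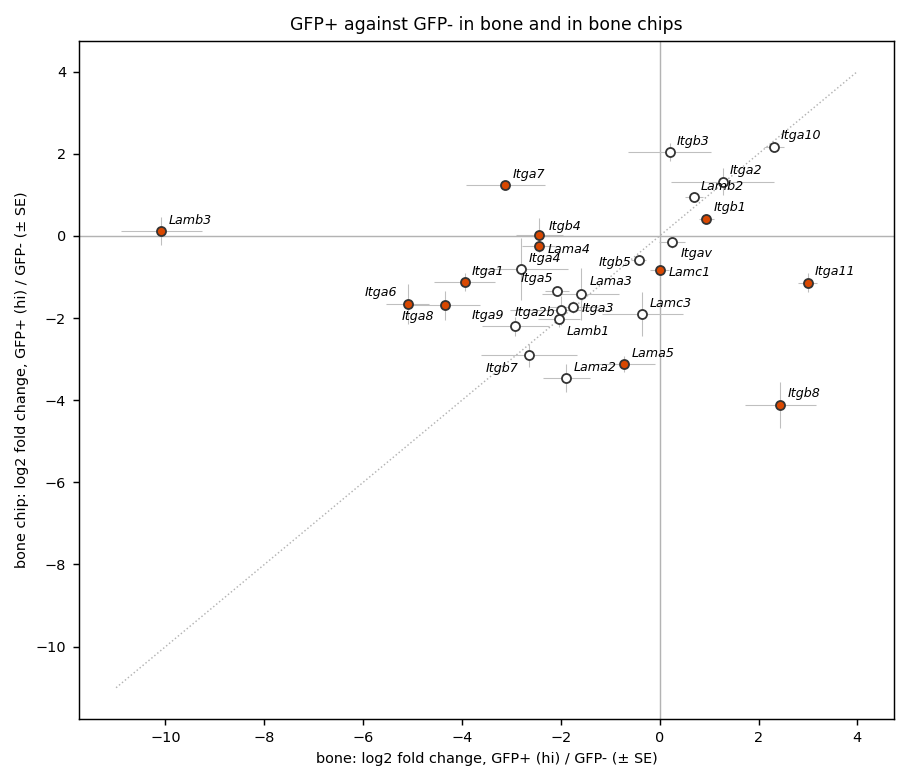
Log2 fold change of GFP+ (hi) against GFP- cells in bone (x axis) and bone chips (y axis), ± SE, for 28 members tested in both, with orange points where the 2 effects differed by the interaction test. The dotted line marks equal effects. *Itga10* and *Lamb1* lie near it, *Itga11* and *Itgb8* lie below it on the right, and *Itga7* lies above it on the left. *Lamb3*, at -10.09 on the x axis, has no counts in bone GFP+ (hi) cells, so its position there depends on the fit.

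The genes around these receptors were counted from lists of their adaptors, basement membrane partners and ligands. Among all genes tested, 19.5% were higher and 22.1% lower in bone, 20.4% and 23.1% in bone chips, and 43.0% and 34.7% in the ESC comparison. No test compared the lists with the members. Integrin adaptors link the β tail to actin and to signalling. Of the 36 tested in bone, 8 were higher and 15 lower in GFP+ (hi) cells, and of the 39 tested in bone chips 5 were higher and 17 lower. With total-count scaling these became 4 higher in bone and 1 higher and 26 lower in bone chips. In bone the falls of largest size were *Lims2*, a partner of integrin-linked kinase (-4.82 ± 0.30), *Fermt3*, the kindlin of blood cells (-3.13 ± 0.55), and *Ptk2b* (-3.11 ± 0.84). In bone chips they were *Cav1* (-3.03 ± 0.23), *Tln2* (-1.21 ± 0.13) and *Flnc* (-1.14 ± 0.11). For ESC-OB GFP+ cells 24 of 41 were higher and 7 lower, among them the focal adhesion protein *Zyx* (7.04 ± 0.24) and *Cav1*, which had 3 counts in ESC and a mean of 234 CPM in ESC-OB GFP+ cells. The list's medians on the log2 scale were -0.16 in bone, -0.30 in bone chips and 1.02 in the ESC comparison.

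Of the partners of laminin in the basement membrane 29 could be tested in bone, where 6 were higher and 16 lower. Bone chips gave 8 rises and 11 falls among 27, and the ESC comparison 22 rises and 6 falls among 31. *Sgca*, the sarcoglycan that belongs to the muscle laminin receptor complex around dystroglycan, rose by 5.54 ± 0.35 in fresh bone and by 5.09 ± 0.23 in cultured chips. *Smoc1* fell by 7.05 ± 0.57 in bone, and *Egfl6* by 4.17 ± 0.47 in bone chips. *Smoc2* had 3 counts in ESC and a mean of 285 CPM in ESC-OB GFP+ cells, where the type IV collagen genes *Col4a3* and *Col4a6*, without counts in ESC, had means of 24.1 and 12.2 CPM. The medians of this list were -1.27, -0.02 and 3.73 in the same order. Integrin ligands split nearly evenly in the sorted sources, with 11 rises and 13 falls among 36 in bone and 15 of each among 33 in bone chips. Against ESC, 33 of 40 rose and 5 fell. The RGD proteins of mineralised matrix led the rises, *Dmp1* by 9.55 ± 0.51 in fresh bone, and *Dmp1*, *Mepe* and *Ibsp* by 5.58 ± 0.44, 5.56 ± 0.48 and 4.49 ± 0.27 in bone chips. *Edil3*, an αv ligand, and *Fgg*, a fibrinogen chain, fell in bone by 7.54 ± 0.42 and 6.92 ± 0.81. Among these ligands ESC-OB GFP+ cells held *Col1a2* at a mean of 4235 CPM against 0.629 CPM in ESC (12.89 ± 0.63). Medians of the ligands were -0.40, 0.04 and 5.40.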

How the data were processed

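Libraries came from cells sorted or cultured from Col2.3GFP mice and their embryonic stem cells. The authors aligned reads with STAR 2.4.2a to mm9 and deposited 3 tables of raw read counts per RefSeq gene, one each for bone, bone chips and ESC, and per the labels' processing notes R 3.2.2 and DESeq2 were used downstream. The counting tool and its use of strand are not given in the sources used here.

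Counts were tested in each table with the quasi-likelihood test of edgeR 4.0.16 (R 4.3.3, limma 3.58.1), with genes kept by filterByExpr at a minimum count of 10, TMM scaling, Benjamini-Hochberg adjustment over all genes and calls at an adjusted p under 0.05. The difference between the bone and bone chip effects was tested in 1 fit of their 12 libraries. Alternatives were DESeq2 1.42.0, RLE factors, total-count scaling, other filters, a replicate block, thinned libraries, a log2 threshold of 1 and leaving out each library. The scripts were tested on simulated data. At a simulated log2 change of 1, 29% of changed genes were recovered in bone, 55% in bone chips and 33% in the ESC comparison. The test of the difference between effects recovered 6%. At a change of 2 these were 67, 91, 75 and 58%. A member without a call may therefore still differ. A bound against 0 counts uses a floor of 3 counts over the group and, like any counting interval, covers counting error only.

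Same-numbered bone chip libraries deviated together (correlations 0.158, 0.329 and 0.397), though no label says that they are pairs. In bone and ESC no such correlation reached 0.1. Bone chip calls come from the fit without pairs, with the replicate block as an alternative. In the test of the difference between effects the block also covers the bone libraries. Totals from 4920977 to 43874837 counts leave members under about 1 CPM with few counts.

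Levels per kilobase use the exon unions of GENCODE vM1 (mm9), which matched all 37 members, and are not the gene models counted. Exons of 8 members overlap another gene (*Itga10*, *Itga4*, *Itga7*, *Itga8*, *Itgad*, *Itgav*, *Itgb4* and *Lamc3*), and without strand such reads cannot be told apart. Promoters came from RefSeq windows on GRCm38.p6.

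Members and lists were chosen with earlier results of these data known. Values in every library were due for members called alike in all 3 comparisons, for the 3 largest rises and falls per comparison among members at 5 CPM or more in the higher group, for members called in opposite directions in bone and bone chips, and for *Itgb1*, *Itgav* and *Lamc1*. Up to 3 genes per context list with the largest changes were named. Values per library of *Itga1*, *Itga2b*, *Itga5*, *Itgae*, *Itgam*, *Itgb2*, *Itgb5*, *Itgb7*, *Lama1*, *Lama3*, *Lamb1* and *Lamb3* in bone chips, and the shares within a class, were added after they had been seen. Results that need 1 of the members are not reported here.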

Additional observations from a re-analysis of the deposited data

Results flagged for a closer look

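The GFP effect of 13 members, among them those named here, differed between bone and bone chips by the test of the difference itself (bone chip minus bone, log2 scale, edgeR's quasi-likelihood test adjusted over 13574 genes). It was less negative or higher in bone chips for *Itga1* (2.81 ± 0.70), *Itga6* (3.46 ± 0.70), *Itga7* (4.35 ± 0.82), *Itga8* (2.66 ± 0.92), *Itgb4* (2.46 ± 0.59), *Lama4* (2.20 ± 0.39) and *Lamb3*. The value of *Lamb3*, 10.36 ± 0.92, rests on 0 counts in bone GFP+ (hi) cells and depends on the fit. It was lower in bone chips for *Itga11* (-4.14 ± 0.32), *Itgb1* (-0.52 ± 0.18), *Itgb8* (-6.54 ± 0.93), *Lama5* (-2.43 ± 0.53) and *Lamc1* (-0.84 ± 0.24). The bone effect of *Lama5* rests on 68 counts in GFP- and 108 in GFP+ (hi) cells and was not called (-0.71, adjusted p = 0.387). With the replicate block the differences of *Itgb1* and *Itga8* were not called (adjusted p = 0.0732 and 0.118). The 2 GFP- groups are mixtures, with chondrocyte markers at 102050 to 204790 CPM when fresh and 6112 to 10374 CPM when cultured, and a difference between these groups cannot be told apart from a difference between the GFP+ (hi) groups.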

How the results depend on the processing

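Of 2010 values of members under the alternatives, 1866 kept their side of the threshold, 107 lost a call, 35 gained one and 2 reversed. Of the 1866, 61 changed sign without a call on either side and the others kept their direction. Both reversals came from leaving out bone chip GFP- replicate 2, the library with high leukocyte markers, and without 1 library *Itga4* ran from -1.18 to 0.67 and *Itgb2* from -1.45 to 0.60 in bone chips. A log2 threshold of 1 gave 2 members higher in bone, 3 higher and 9 lower in bone chips, 1 lower in the ESC comparison and 0 higher in all 3, since it asks for larger changes. Over all genes it gave 839 higher and 1467 lower in bone against 2455 and 2776, and 679 and 916 in bone chips against 2614 and 2967. In the ESC comparison the members called lower dropped to 1 with total-count scaling, without a filter and with the replicate block, and with total-count scaling 1 member was higher in all 3, *Itga10*, in place of *Itgb1* and *Lamb2*. The cause was not tested.

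Without 1 library the members higher numbered 3 to 5 in bone, 5 to 9 in bone chips and 26 to 28 in the ESC comparison, those lower 11 to 16, 15 to 17 and 1 to 3, those with a differing effect 11 to 15, and those higher in all 3 comparisons 1 to 3. With the replicate block, bone chips had 8 members higher and 18 lower, *Lama1* and *Lama3* being the ones gained. In bone and in the ESC comparison libraries share only a number. The block gave 4 higher and 15 lower in bone, where *Itga4*, *Itgb5* and *Itgb8* lost and *Itga2b* and *Itgb7* gained a call, 27 higher in the ESC comparison, and 12 differing effects, where *Itga8* and *Itgb1* lost and *Itgb3* gained a call. The shares within a class depend on the length scaling, as 107 of 216 moved by more than their SD when taken from counts.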
